A study of Mus musculus with 4 samples.

Results

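The Hippo pathway and the transcripts it controls through YAP were examined in mouse granulosa cells (GCs), which surround and feed the oocyte. The members were chosen by name and comprised 10 of the 55385 genes in the count table. They were the kinases Stk3, Lats1 and Lats2, the adaptor Sav1, the scaffold Amotl2, the coactivators Yap1 and Wwtr1, the DNA-binding partner Tead1, and the secreted targets Ctgf (now named Ccn2) and Cyr61 (now named Ccn1). Each symbol matched a single Ensembl identifier. The preantral follicles came from female mice of the Kunming strain, 12 to 14 days old, and were cultured singly for 6 days. In the NT4 group (2 libraries) the medium held neurotrophin-4 (NT-4), a ligand of the TRKB receptor, and in the Control group (2 libraries) it did not. The medium of both groups held follicle-stimulating hormone, fetuin, albumin, insulin and transferrin. The cells were those left after the oocyte had been removed, and no sorting is described, so each library is a bulk of whatever cells stayed together. In such bulk RNA, fewer cells of a type and less RNA per cell cannot be told apart. The labels do not say what separates the libraries of a group, and by the study's description the GC samples of a group came from experiments run independently.

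In the Hippo pathway, the MST kinases (MST2 is encoded by Stk3) bind the adaptor SAV1 and phosphorylate the LATS kinases. LATS1 and LATS2 in turn phosphorylate YAP and its paralogue TAZ (encoded by Wwtr1), which are then held in the cytoplasm or degraded. When the kinases are inactive, YAP and TAZ enter the nucleus and bind TEAD proteins, which switch on genes such as Ctgf, Cyr61 and Amotl2. Much of this control acts on the proteins by phosphorylation, which RNA does not show. In the ovary, the pathway is known for its role in the growth of small follicles, and mechanical disruption of ovarian tissue is known to raise CTGF and other YAP targets.

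The stretches of genome just before the start sites were read first, because TEAD proteins bind a short motif that can be looked for in them. The windows hold the 250 bases before a RefSeq start site on GRCm38.p6, written 5′ to 3′ on the strand of the gene. Capitals mark the TEAD core, GGAATG, or its reverse complement, CATTCC. The table held 9 windows for 7 members (Yap1, Wwtr1, Lats1, Lats2, Sav1, Cyr61 and Amotl2), with 2 windows each for Wwtr1 and Lats2. The windows of the targets Cyr61 and Amotl2 are shown with those of the coactivators Yap1 and Wwtr1.
Cyr61, chr3:145649986-145650235, minus strand: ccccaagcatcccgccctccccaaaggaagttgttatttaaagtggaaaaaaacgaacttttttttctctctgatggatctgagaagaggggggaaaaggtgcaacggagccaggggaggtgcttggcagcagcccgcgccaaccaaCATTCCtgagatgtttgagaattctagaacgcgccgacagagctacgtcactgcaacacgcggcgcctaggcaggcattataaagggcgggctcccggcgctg
Amotl2, chr9:102717554-102717803, plus strand: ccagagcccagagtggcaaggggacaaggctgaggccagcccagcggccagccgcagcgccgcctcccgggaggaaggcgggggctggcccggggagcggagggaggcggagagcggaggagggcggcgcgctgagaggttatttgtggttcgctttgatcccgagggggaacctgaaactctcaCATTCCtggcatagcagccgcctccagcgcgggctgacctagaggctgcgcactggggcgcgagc
Yap1, chr9:8004597-8004846, minus strand: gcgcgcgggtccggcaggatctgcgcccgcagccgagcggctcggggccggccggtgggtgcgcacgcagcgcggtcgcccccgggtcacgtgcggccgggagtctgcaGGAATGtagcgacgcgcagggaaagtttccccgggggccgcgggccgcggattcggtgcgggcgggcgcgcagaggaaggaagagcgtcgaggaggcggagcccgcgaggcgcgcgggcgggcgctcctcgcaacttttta
Wwtr1, chr3:57575911-57576160, minus strand: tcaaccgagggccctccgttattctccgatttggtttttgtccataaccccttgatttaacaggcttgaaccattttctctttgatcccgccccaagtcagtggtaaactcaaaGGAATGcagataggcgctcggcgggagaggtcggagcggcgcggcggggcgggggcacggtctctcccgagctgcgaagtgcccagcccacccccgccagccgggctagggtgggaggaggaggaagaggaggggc

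The first base of the match, counted back from the start site, was at position −103 in Cyr61, −65 in Amotl2, −141 in Yap1 and −136 in Wwtr1. Both windows of Wwtr1 held the same match. Sav1 held the letters at −106, and they were not in the windows of Lats1 and Lats2. In total 6 of the 9 windows held the core on either strand, against 12.6% of all 32851 promoter windows. The 2 windows of Wwtr1 overlap, so its site is counted 2 times. By gene, 5 of 7 members held the core, beside 3880 of 27025 genes. Among the wider YAP targets described further on, which again include Cyr61 and Amotl2, 6 of 17 windows (35.3%) held the core. In the actin list, also described further on, 6 of 16 windows (37.5%) did. The CArG box, the site of the serum response factor SRF, which serves some of the same targets, was in 0 of the 9 windows, in 0 of the 17, in 5 of the 16 (31.2%) and in 1.47% of all. A match of letters is a description and not a bound site.

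The 4 libraries held 49520092 to 78704020 counts, an estimated 12380023 to 19676005 read pairs at about 4 counts a pair. Levels are given as CPM, a gene's count relative to the size of its library. Library sizes were first adjusted by the TMM method, so the sums of CPM differ slightly between libraries, and the factors lay between 0.9798 and 1.014. The cell type named in the labels was checked against 12 granulosa markers, which all exceeded 1 CPM in every library and summed to between 12380 and 19460 CPM. Of the cells that might stay attached, stroma markers summed to between 971.5 and 1466 CPM, theca markers to between 449.8 and 755 and oocyte markers to between 66.82 and 97.53. Endothelial markers summed to at most 28.33 CPM and macrophage markers to at most 1.797, with 4 of 5 (Ptprc, Csf1r, Adgre1 and Cx3cr1) under 1 CPM throughout. In libraries numbered 1, 10 of the 12 granulosa markers were lower than in both libraries numbered 2, while Amh and Kitl were higher.

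The main question was whether these genes differed between GCs of follicles grown with and without NT-4. In edgeR's quasi-likelihood test 0 of the 10 members passed an adjusted p of 0.05, as did 0% of the 19259 genes tested. The adjusted p was 0.9999 for each of the 10 members. Of these, 0 had an unadjusted p under 0.05, beside 383 of the 19259 genes tested. The DESeq2 Wald test called 65 genes in all and edgeR's exact test 57, and 0 members were among them. Limma voom called 0 genes in all, and so 0 members. By the criterion of the study's methods, an unadjusted p under 0.05 together with more than a 2-fold difference, 0 members were counted against 1.08% of all genes. The CPM ranges of the NT4 and the Control libraries overlapped for all 10 members, whereas they did not overlap for 26.0% of all genes. The median log2 fold change of the 10 was 0.017, with 6 above 0 and 4 below, beside a median of 0.0045 over all genes. Libraries in each group number 2, so an exact permutation of the groups could not give a p below 0.333.

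**Figure D1:**
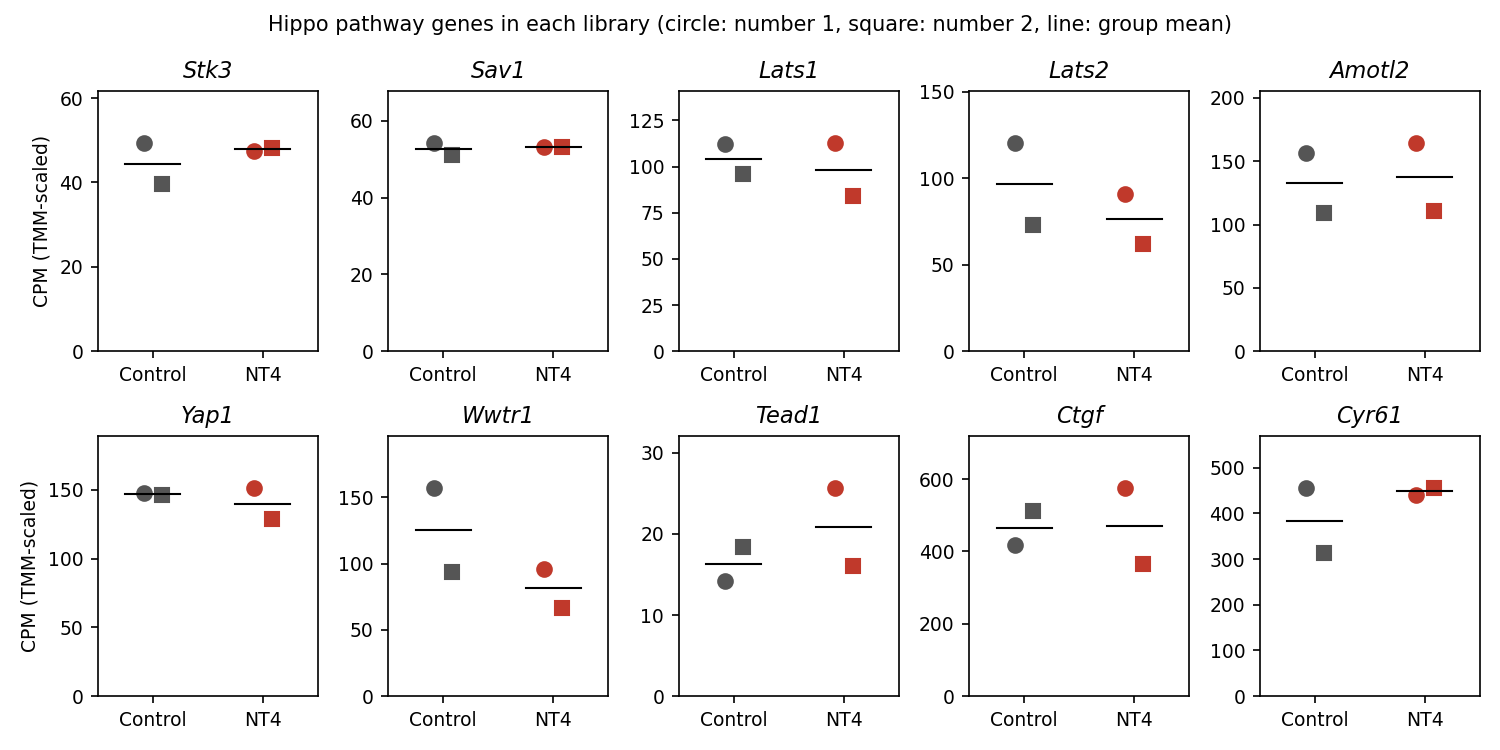
CPM of each of the 10 genes in the 4 libraries, 1 panel a gene, with the vertical axis from 0 and a line at the mean of each group. The points of Control and NT4 overlap in every panel, and the widest gap between group means in proportion is that of Wwtr1, at 125.6 against 81.59 CPM.

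The kinase cascade was examined from the top. Stk3 (ENSMUSG00000022329, GRCm38 chromosome 15, 34875496 to 35178921, minus strand), which encodes MST2, was at 49.3 and 39.6 CPM in Control 1 and Control 2 and at 47.6 and 48.1 CPM in the NT4 libraries 1 and 2. Control 2 was the low library, and both NT4 values lay between the Control values. Its log2 fold change was 0.11 (SE 0.16, 95% interval −0.29 to 0.50). Sav1 (ENSMUSG00000021067, chromosome 12, 69965012 to 69987002, minus strand), the adaptor that holds MST to LATS, was the steadiest member. It measured 54.2 and 51.0 CPM in the Control libraries against 53.1 and 53.2 CPM under NT-4. Its highest library exceeded its lowest by 1.06-fold, a smaller spread than in all but 3.37% of 10054 genes with a mean of at least 10 CPM. The log2 fold change of Sav1 was 0.016 (SE 0.12, 95% interval −0.30 to 0.33), and it was below 0 when libraries were scaled by their totals. Sav1 shares 1336 bases of exon with Atl1 on the opposite strand, and the use of strand in counting is not stated. Atl1 had only 284 to 586 counts a library, against 2718 to 4101 for Sav1.

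The LATS kinases, which mark YAP and TAZ for retention, followed. Lats1 (ENSMUSG00000040021, chromosome 10, 7681214 to 7716460, plus strand) was at 112.1 and 96.2 CPM in Control and at 112.7 and 83.9 CPM in NT4. The groups overlapped, and the low value of each was the library numbered 2. Its log2 fold change was −0.08 (SE 0.18, 95% interval −0.54 to 0.38). Lats2 (ENSMUSG00000021959, chromosome 14, 57689662 to 57758388, minus strand), which is itself a YAP target and so part of a feedback, varied more. Control 1 held 120.4 CPM of it and Control 2 held 73.0, while NT4 1 held 90.7 and NT4 2 held 61.8. The NT4 value of either number was below the Control value of that number, yet NT4 1 exceeded Control 2. The log2 fold change of Lats2 was −0.34 (SE 0.30, 95% interval −1.09 to 0.41), and without Control 1 it was 0.059. Lats2 shares 2955 bases of exon with Gm49361 on the same strand, which was listed at 0 counts in all 4 libraries.

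Amotl2 (ENSMUSG00000032531, chromosome 9, 102716672 to 102733418, plus strand) encodes an angiomotin-like scaffold that binds YAP at junctions and is also induced by it. It was at 156.0 and 109.0 CPM in Control and at 164.2 and 110.3 CPM in NT4. The values fell into a high pair, Control 1 and NT4 1, and a low pair, Control 2 and NT4 2. The log2 fold change between the groups was 0.05 (SE 0.26, 95% interval −0.60 to 0.71), and the spread within each group exceeded it.

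The coactivators gave the largest difference among the 10 genes. Yap1 (ENSMUSG00000053110, chromosome 9, 7931999 to 8004596, minus strand) measured 147.3 and 146.4 CPM in the Control libraries against 151.4 and 128.4 CPM under NT-4. The NT4 values lay on either side of the Control values. Its log2 fold change was −0.07 (SE 0.13), and the 95% interval of −0.40 to 0.26 corresponds to a fold between 0.757 and 1.2. Gm20416, on the opposite strand, shares 116 bases with Yap1 and was listed at 0 counts.

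Wwtr1 (ENSMUSG00000027803, chromosome 3, 57455649 to 57575910, minus strand), which encodes TAZ, measured 157.2 CPM in Control 1 and 94.1 CPM in Control 2, while NT4 1 held 96.3 CPM and NT4 2 held 66.9 CPM. Control 1 was the highest library and NT4 2 the lowest, and NT4 1 lay just above Control 2, so the groups overlapped. The mean of the Control libraries was 125.6 ± 44.7 CPM and that of the NT4 libraries 81.6 ± 20.8 CPM (SD, n = 2). The log2 fold change was −0.62 (SE 0.30, 95% interval −1.38 to 0.13), with an unadjusted p of 0.0879 by edgeR, adjusted to 0.9999. Its sign was the same in all 15 alternatives, but most of them refit the same libraries, where the value stayed between −0.64 and −0.59. With a library left out, the log2 fold change ranged from −0.94 without Control 2 to −0.21 without Control 1. The highest library of Wwtr1 exceeded the lowest by 2.35-fold, a spread that 3.07% of the genes with a mean of at least 10 CPM surpassed. The quartiles of those genes were at 1.15- and 1.40-fold.

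Tead1 (ENSMUSG00000055320, chromosome 7, 112679318 to 112906807, plus strand) encodes a TEAD factor, through which YAP and TAZ reach DNA. It had the fewest counts of the 10, at 14.2 and 18.4 CPM in Control and at 25.7 and 16.0 CPM in NT4. NT4 1 stood above the other 3 libraries, and the second NT4 library lay between the Control values. The log2 fold change was 0.35 (SE 0.28, 95% interval −0.36 to 1.06), and without NT4 1 it was −0.04. The fewest counts of Tead1 in a library were 715, about 179 read pairs, where counting error alone is about 7.48%. For the other 9 genes counting error was at most 4.02% in any library.

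Per length, the secreted targets were the most abundant members. Ctgf (ENSMUSG00000019997, chromosome 10, 24595442 to 24598683, plus strand), a matricellular protein of the CCN family, was at 417.5 and 510.8 CPM in Control and at 575.8 and 364.2 CPM in NT4. The NT4 libraries were the highest and the lowest of the 4. Its log2 fold change was 0.018 (SE 0.24, 95% interval −0.60 to 0.63). It ranged from −0.36 without NT4 1 to 0.31 without NT4 2.

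Cyr61 (ENSMUSG00000028195, chromosome 3, 145646976 to 145649981, minus strand), a second CCN protein and the gene of the first window printed above, was at 455.2 CPM in Control 1 and 312.9 in Control 2. It was at 440.0 CPM in NT4 1 and 455.8 in NT4 2. Control 2 was the low library, and the other 3 lay close together with Control 1 between the NT4 values. The log2 fold change was 0.22 (SE 0.20, 95% interval −0.27 to 0.72), and without Control 2 it was −0.018. Ctgf and Cyr61 did not vary alike across the libraries, since Control 2 held the lowest Cyr61 and the second highest Ctgf.

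**Figure D2:**
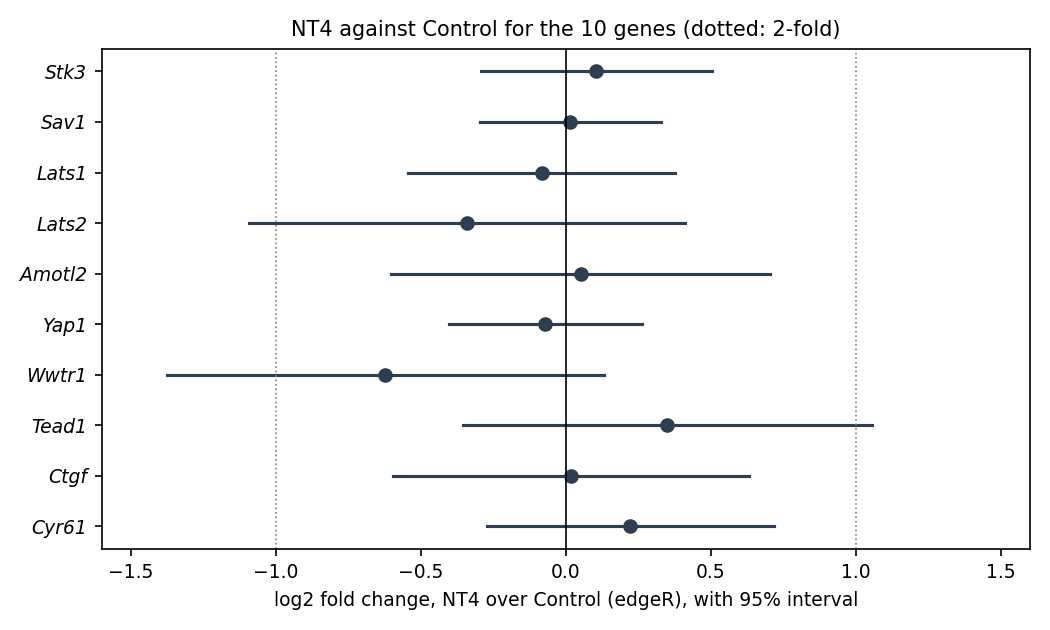
Log2 fold change of NT4 over Control for the 10 genes from edgeR's quasi-likelihood fit, with bars for the 95% interval and dotted lines at 2-fold in either direction. In this fit, which has no replicate block, all 10 intervals include 0, and only those of Wwtr1, Lats2 and Tead1 reach past a dotted line.

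In the fit without a replicate block, the 95% interval of the fold change lay within 2-fold either way for 7 of the 10 genes. The exceptions were Wwtr1 (0.385- to 1.09-fold), Lats2 (0.468- to 1.33-fold) and Tead1 (0.782- to 2.08-fold). A p above the threshold does not show that the groups were alike.

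The libraries numbered 1 and those numbered 2 were then set side by side, since the labels give both groups the same numbers. Both libraries numbered 1 exceeded both numbered 2 for 5 of the 10 members (Yap1, Wwtr1, Lats1, Lats2 and Amotl2), and 0 members showed the reverse. Over all genes tested, 24.3% were higher in this way in the libraries numbered 1, and 4772 of 19259 showed the reverse. The labels do not say what a number marks. Markers of GC function were set side by side by number as well, without a test, and the gaps varied in size. Inhbb, a subunit of inhibin and activin, was at 1510 and 1047 CPM in the libraries numbered 1 (Control and NT4) and at 2689 and 3224 CPM in those numbered 2. Cyp19a1, the aromatase that makes estradiol, was at 39.8 and 36.6 against 65.5 and 87.0 CPM. Amh, a hormone of small growing follicles, was higher in the libraries numbered 1, at 299.2 and 390.7 against 151.2 and 91.5 CPM. Another granulosa marker, Gja1, lay closer, at 1888 and 1817 against 1964 and 1993 CPM. The part of these markers in the levels of the 5 genes was not tested.

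Levels of different genes were compared per kilobase of exon, which removes the effect of gene length on counts. Cyr61 stood highest at a mean of 206.0 CPM per kb over the 4 libraries and Ctgf next at 163.3. Their ranges of 155.0 to 225.7 and 127.3 to 201.3 overlapped, and in Control 2 Ctgf was the higher. Wwtr1 (21.7), Amotl2 (21.4), Yap1 (15.5), Lats1 (13.9) and Lats2 (12.4) followed. The ranges of Wwtr1 and Amotl2 overlapped, as did those of Yap1 and Lats1 and of Lats1 and Lats2, while Amotl2 (17.34 to 26.1) lay above Yap1 (13.87 to 16.35) in every library. Sav1 (10.04) came next and overlapped Lats2, and Stk3 (7.55) lay below Sav1 in every library. Tead1 was lowest at 1.37 CPM per kb, below every other member in all 4 libraries. The choice of length moved the middle of this order. By the longest transcript in place of all exons, Amotl2 was at 30.5, Yap1 at 27.1 and Wwtr1 at 22.1 CPM per kb. By this length Amotl2 was not above Yap1 in every library, since in Control 2 Yap1 was at 27.7 and Amotl2 at 24.6. Lats2 (16.7) and Sav1 (15.7) then stood above Lats1 (14.0), while the 2 highest genes and the lowest were the same.

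**Figure D3:**
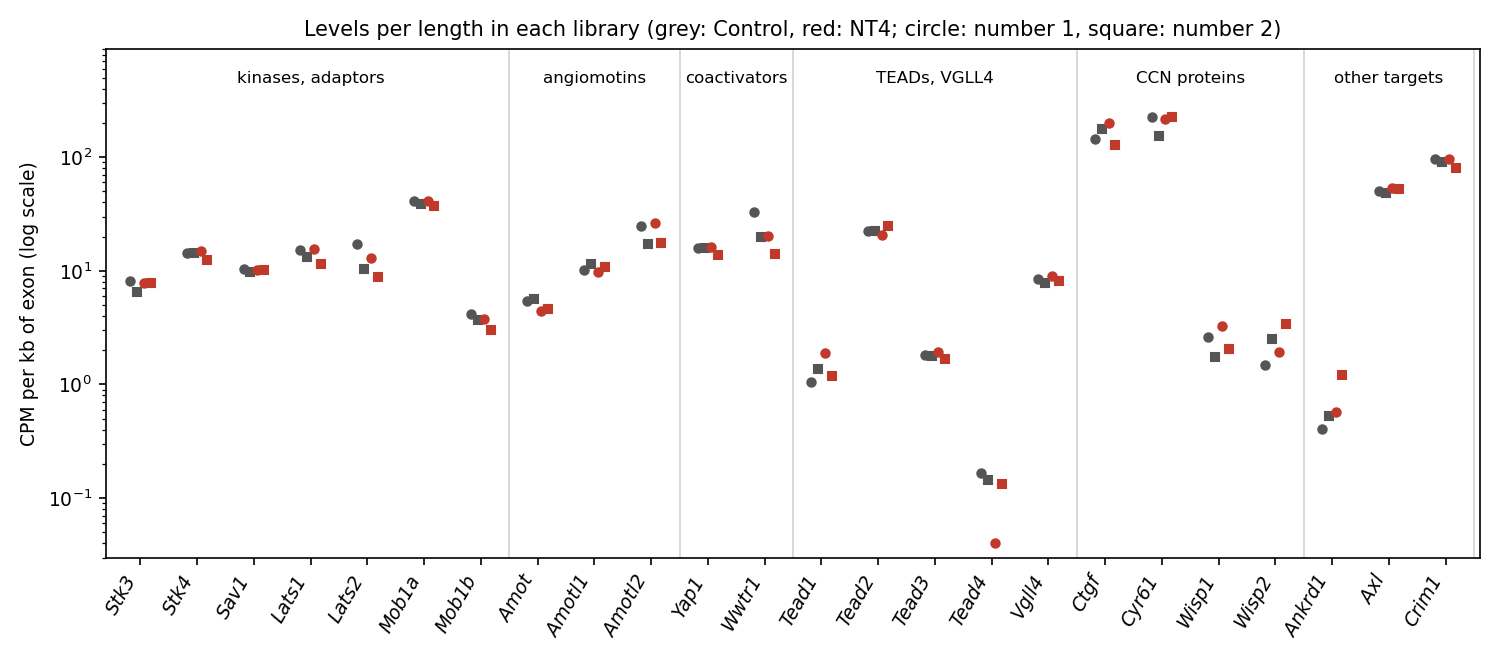
CPM per kb of exon on a log axis for the 10 genes and their relatives in each library, grey for Control and red for NT4. Ctgf and Cyr61 sit above 100 CPM per kb, Tead2 lies 10.9- to 21.4-fold above Tead1, and Tead4 lies lowest of the genes drawn.

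Related genes were compared within a library, where scaling cancels. The log2 ratio of Yap1 to Wwtr1 per kb was −1.05 in Control 1 and −0.315 in Control 2, and for NT4 it was −0.302 in library 1 and −0.0128 in library 2. Both NT4 values lay above both Control values, with NT4 1 barely above Control 2. By the longest transcript the ratio was above 0 in every library but Control 1, and the difference between the groups was the same. The mean difference of NT4 minus Control was 0.524, with a p of 0.333 in the exact permutation test, two-sided, the smallest these 4 libraries allow. It was 0.158 without Control 1 and 0.891 without Control 2. The ratio of Lats1 to Lats2 was −0.17, 0.333, 0.247 and 0.375 in the same order. Control 1 alone was below 0, and the mean difference was 0.23 (exact permutation p = 0.667), or −0.022 without Control 1. By the longest transcript this ratio was below 0 in every library (−0.578, −0.0752, −0.161 and −0.0333). The ratio of Ctgf to Cyr61 was −0.628, 0.204, −0.115 and −0.826. By the longest transcript it was above 0 in NT4 1 as well (0.0855). The mean difference was −0.259 (exact permutation p = 0.667). The ratio's spread within a group, with an SD of 0.588 in Control and 0.503 in NT4, exceeded that difference. Without Control 2 the difference was above 0 (0.157), as it was without NT4 2 (0.097). These 3 ratios were all that were tested between the groups, and no p-value here could fall below 0.05.

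The paralogues of the members were placed beside them. Tead2 was the most abundant TEAD gene, at 107.6, 107.4, 98.95 and 117.8 CPM with the Control libraries first. Per kb it lay 10.9- to 21.4-fold above Tead1 in the 4 libraries and 10.7- to 14.6-fold above Tead3, and Tead4 did not exceed 0.598 CPM. The fold change of Tead2 between the groups was 0.01 on the log2 scale (SE 0.13). Stk4, which encodes the other MST kinase, lay 1.57- to 2.19-fold above Stk3 per kb of all exons, but 0.95- to 1.32-fold by the longest transcript, so their order depends on the length used. Of the MOB1 proteins that activate LATS, Mob1a lay up to 12.4-fold above Mob1b per kb of all exons and 6.49- to 8.01-fold above it by the longest transcript. Among the other CCN genes, Wisp1 and Wisp2 had at most 18.1 and 6.53 CPM, and Nov and Wisp3 at most 0.159 CPM, in each library below what 3 read pairs are worth there (0.156 to 0.239 CPM). Of the 6 CCN genes, 4 were tested, and all 4 had a log2 fold change above 0 with a median of 0.252, none past an unadjusted p of 0.05. Wisp2, which has the smallest unadjusted p after Cyr61, had a log2 fold change of 0.42 (SE 0.40).

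The wider pathway was counted from lists written by hand, which hold 8 of the 10 members (all but Ctgf and Cyr61). The 4 lists held kinases with SAV1 and MOB1, upstream and junction proteins, nuclear partners and the STRIPAK phosphatase complex, which holds MST kinases inactive. Together they named 66 genes, of which 65 were tested and 1, Vgll2, had no count. By edgeR 0 of the 65 passed an adjusted p of 0.05. Beside 383 of all 19259 genes, 0 of the 65 had an unadjusted p under 0.05. Their median log2 fold change was −0.02, with 26 above 0 and 39 below, and NT4 and Control did not overlap for 17 genes (26.2%), beside 26.0% of all genes. Without the members 57 genes were tested, with 22 above 0, 35 below and 17 (29.8%) not overlapping.

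In the list of kinases with SAV1 and MOB1, Map4k4, which can phosphorylate LATS alongside MST, was highest per kb, at 427.6 to 623.6 CPM. Mob1a followed at 179.4 to 198.1 CPM. The smallest unadjusted p were those of Stk38 (log2 fold change −0.43, SE 0.23), a LATS-related kinase, and Mob1b (−0.20, SE 0.16). Stk38 was at 51.7 CPM in Control 1 and at 31.4 to 33.5 CPM in the other 3 libraries. Taok1, an upstream kinase chosen after its values were seen, was at 33.1 CPM in NT4 2 and at 97.3 to 110.3 CPM in the other libraries.

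Per kb of all exons, the highest upstream and junction genes were the giant cadherin Fat1 and the polarity scaffold Dlg5. They were at 543.1 to 726.3 and 179.6 to 225.3 CPM. By the longest transcript Dlg5 (26.5 CPM per kb) stood below Amotl2 (30.5). Fat1 shares 487 of its 15655 exonic bases with Gm2366 on the opposite strand, and Dlg5 shares 126 with Gm49098 on the same strand. How reads there were assigned is not stated. The smallest unadjusted p were those of Rassf2 and Amot. Rassf2, a partner of MST kinases, measured 64.3 and 77.1 CPM in the Control libraries against 51.7 and 23.0 CPM under NT-4, a log2 fold change of −0.92 (SE 0.38, unadjusted p of 0.0582 in edgeR's test). Amot, the founding angiomotin, measured 45.2 and 47.1 CPM in the Control libraries against 36.9 and 39.0 CPM under NT-4, with −0.28 (SE 0.13). For both genes the NT4 libraries lay below the Control libraries, and in this fit neither passed an unadjusted p of 0.05. Amotl2, of the same family as Amot, showed no such separation.

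Of the nuclear partners, Tead2 and Wwtr1 were highest per kb of all exons. By the longest transcript Yap1 (27.1 CPM per kb) stood above Wwtr1 (22.1). Wwtr1 and Vgll3, a TEAD cofactor, had the smallest unadjusted p. Vgll3 measured 9.35 and 10.1 CPM in the Control libraries against 13.9 and 10.4 CPM under NT-4, a log2 fold change of 0.32 (SE 0.21). In the STRIPAK complex the phosphatase subunits Ppp2r1a (301.4 to 313.7 CPM) and Ppp2cb (96.7 to 104.1 CPM) were highest per kb. Its smallest unadjusted p were those of Mob4 (log2 fold change −0.35, SE 0.22) and Strn (−0.17, SE 0.13).

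A list of 22 genes widely used as YAP and TAZ targets was then compared. It includes Ctgf, Cyr61, Amotl2 and Lats2. Of the 21 tested, 13 were above 0 and 8 below, with a median log2 fold change of 0.018 and 0 past the adjusted p by edgeR. Groups did not overlap for 5 of them (23.8%), 4 higher in NT4 and 1 lower, beside 26.0% of all genes, of which 2574 were higher and 2438 lower. The smallest unadjusted p were those of Nt5e, an enzyme that makes adenosine, and Ankrd1, a nuclear protein often used as a YAP readout. Nt5e measured 2.19 and 1.61 CPM in the Control libraries against 3.96 and 3.20 CPM under NT-4, a log2 fold change of 0.92 (SE 0.31, unadjusted p of 0.0301 by edgeR, adjusted to 0.9999). Ankrd1 measured 1.18 and 1.52 CPM in the Control libraries against 1.64 and 3.50 CPM under NT-4, and NT4 2 alone stood apart. Both genes were low, at less than 4 CPM in every library. The abundant targets Crim1 (483.5 to 582.4 CPM) and Axl (245.2 to 269.1 CPM) had log2 fold changes of −0.06 (SE 0.13) and 0.08 (SE 0.11). Axl was still higher in both NT4 libraries (269.1 and 261.6 CPM) than in both Control libraries (255.3 and 245.2 CPM). Foxf2 had no count in any library, and Nuak2 did not exceed 0.433 CPM.

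**Figure D4:**
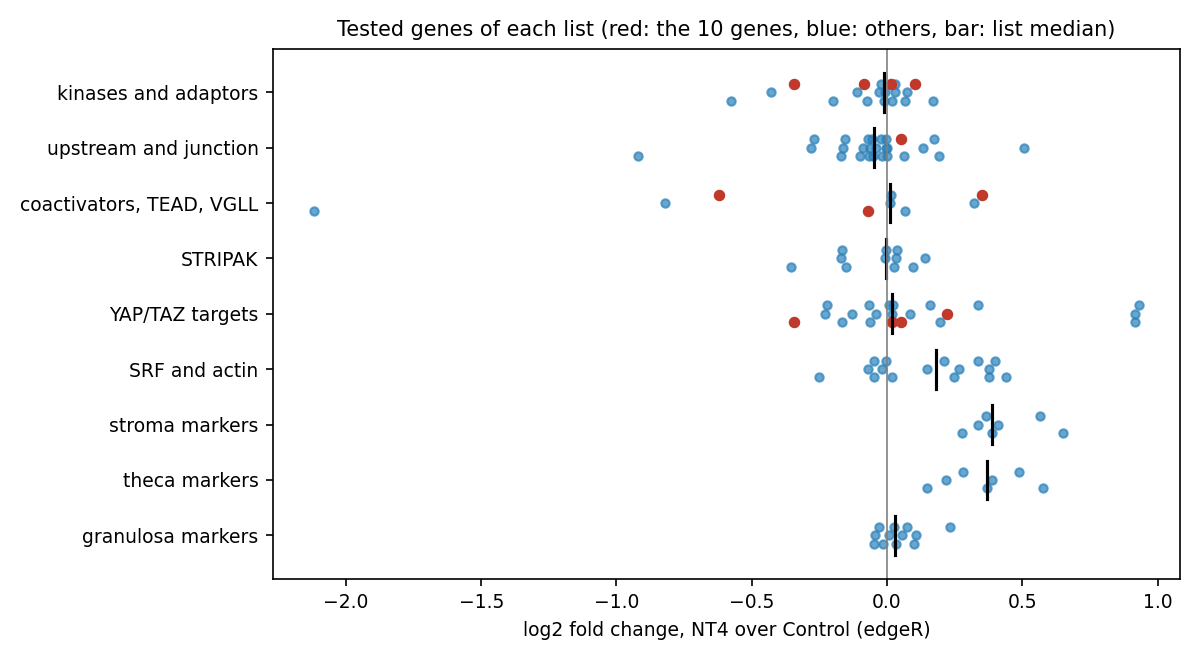
Log2 fold change of NT4 over Control for each tested gene of 9 lists, red for the 10 genes and blue for the others, with a bar at the median of each list. The medians of the Hippo lists and of the YAP and TAZ targets lie within 0.05 of 0, and those of the stroma and theca markers at 0.39 and 0.37.

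Actin genes driven by SRF were compared because tension on the cytoskeleton acts on both SRF and YAP. The list also held the regulators Srf, Mkl1 and Mkl2, with log2 fold changes of −0.05, −0.02 and −0.25. For Mkl2 the NT4 libraries lay below the Control libraries. Of 16 tested, 10 were above 0 and 6 below, with a median log2 fold change of 0.18, and 0 passed the adjusted p by edgeR. Groups did not overlap for 8 of the 16, of which 7 were higher in NT4, whereas over all 19259 genes 26.0% did not overlap and 2574 were higher in NT4. The most abundant, Actg1 and Actb, had log2 fold changes of 0.018 (SE 0.15) and −0.005 (SE 0.13). The smallest unadjusted p were those of Acta2 and Cnn2. Acta2, smooth muscle actin, measured 234.8 and 211.8 CPM in the Control libraries against 310.4 and 295.6 CPM under NT-4, a log2 fold change of 0.44 (SE 0.12, unadjusted p of 0.0125 and adjusted p of 0.9999). Cnn2, a calponin, had 0.40 (SE 0.18).

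Stroma and theca markers also had fold changes above 0, without passing the adjusted test, whereas oocyte and endothelial markers were mixed. All 7 stroma markers had a log2 fold change above 0, with a median of 0.39. By edgeR 4 of the 7 had an unadjusted p under 0.05, beside 383 of all 19259 genes. For 6 of the 7 the groups did not overlap, beside 26.0% of all genes. They summed to 1026 and 971.5 CPM in Control and to 1466 and 1110 CPM in NT4. All 7 theca markers were above 0 as well, with a median of 0.37 and 3 of 7 not overlapping, and summed to 449.8 and 627.4 CPM in Control and to 661.3 and 755 CPM in NT4. None of them passed an adjusted p of 0.05. Granulosa markers had a median of 0.028, with 0 of 12 apart. Of 8 oocyte markers 4 were above 0 and 4 below, with a median of −0.026 and 0 apart, and of 5 endothelial markers 3 were above 0 and 2 below, with 3 apart. Of the latter Tek, chosen after its values were seen and under 1 CPM in every library, met the fold criterion (log2 fold change 1.97, unadjusted p of 0.0366 by edgeR, adjusted to 0.9999). Acta2 is also known from the muscle cells of the theca and of vessels. The part of stroma and theca RNA in the levels of the actin genes, Ctgf and Cyr61 was not tested. The stroma sum was highest in NT4 1, the library in which 5 of the 10 members (Yap1, Tead1, Lats1, Ctgf and Amotl2) were highest, while Cyr61 was higher in Control 1 and NT4 2. Lats1 was nearly level there with Control 1 (112.7 against 112.1 CPM). The granulosa sum was lowest in NT4 1, at 12380 CPM. The share of all genes that were highest in NT4 1 was not counted.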

How the data were processed

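GCs from cultured preantral follicles were sequenced as 4 libraries, 2 per group, grouped by their titles. Per the study's methods, the authors trimmed reads with Cutadapt, mapped them with HISAT2 to the mouse genome (mm10 in the submitters' processing notes) and quantified with StringTie and ballgown. The table the authors deposited gives an expected count per gene, in whole numbers and without scaling, and how they were derived from StringTie is not given in the sources used here. Of counts from 1 to 12, 45.4% to 46.2% by library sat at 4, 8 or 12, so a read pair was taken as 4 counts. This unit is an assumption, since most of these counts sat at other numbers. The estimated read pairs, floors and counting errors rest on it. Coordinates and lengths came from GENCODE M21 (GRCm38), in which 55144 of 55385 identifiers were found, and windows before start sites from RefSeq.

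NT4 was compared with Control by quasi-likelihood in edgeR 4.0.16 (R 4.3.3), fitted over 19259 genes after edgeR's default filter, with TMM scaling, group alone in the model and Benjamini-Hochberg adjustment over all of them. Floors and counting errors cover counting only. The fits were tested on simulated data. Tests were two-sided, and 95% intervals came from the same fit. Outside the members, the text names by rule the 2 highest genes per kb and the 2 with the smallest unadjusted p of each Hippo, target, CCN and actin list, since none of their genes passed an adjusted p of 0.05 or the fold criterion. Paralogues of the members, Taok1, Crim1, Axl, Nuak2, Srf, Mkl1, Mkl2 and the granulosa markers named fall outside that rule. They were chosen after their values were seen. The members and lists were chosen with earlier results of these data known. The alternatives used DESeq2 1.42.0 and limma 3.58.1, other scalings and filters, a replicate block, counts divided by 4, summed overlapping genes and each library left out.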

Additional observations from a re-analysis of the deposited data

How the results depend on the processing

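Of the 150 values that the alternatives gave for the 10 members, 134 kept the direction and 16 reversed, and 0 members were called in any of them. Over all genes, the calls at an adjusted p of 0.05, 0 in edgeR's quasi-likelihood test (383 genes at an unadjusted p under 0.05), were 65 in the DESeq2 Wald test, 57 in edgeR's exact test, 10 with no filter and 0 to 37 with a library left out (12 without Control 1 and 37 without Control 2). The genes by fold and unadjusted p, 208, were 119 with counts divided by 4, 87 where 2 libraries had to reach a CPM of 1, 345 with no filter and 341 to 512 with a library left out. The CPM filter left fewer genes to test. The fold change of Sav1 was −0.0052 with library totals and −0.00066 with overlapping genes summed, an alternative chosen after seeing the data, and that of Ctgf was −0.018 in limma voom. With a library left out, log2 fold changes ranged from −0.20 to 0.042 for Yap1, −0.038 to 0.65 for Tead1, −0.32 to 0.11 for Lats1, −0.66 to 0.059 for Lats2, −0.039 to 0.27 for Stk3, −0.022 to 0.054 for Sav1, −0.36 to 0.31 for Ctgf, −0.018 to 0.51 for Cyr61 and −0.27 to 0.33 for Amotl2. With 1 library left in a group, its spread is taken from the other group. Apart from the effect of the CPM filter and of fewer samples, the cause was not tested.

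The groups share replicate numbers. The study describes its cultures as run in parallel and the GC samples as independent experiments, but no source says that a number marks one experiment, and 2 pairs are too few to show it. Over 19259 genes, libraries of the same number deviated together with a coefficient of 0.14 (Pearson) or 0.26 (Spearman). With the replicate block the number of genes called was 0, Ctgf was at −0.012, and 2 members had an interval without 0. How many of all genes had such an interval in that fit was not counted, so the 2 members have no share to be set against. The fold change of Wwtr1 was −0.60 (95% interval −0.87 to −0.33, unadjusted p of 0.0029 and adjusted p of 0.936 in edgeR), and that of Lats2 was −0.32 (95% interval −0.58 to −0.07, unadjusted p of 0.0222). Rassf2 was at −1.03 (unadjusted p of 0.0404 in edgeR), which meets the fold criterion, as 180 of all genes did in the block fit. The members had at least 179 read pairs in each library.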
